A study of Mus musculus with 2 samples.

Results

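The 10 genes of MHC class I antigen presentation and of the immunoproteasome (H2-K1, H2-D1, B2m, Tap1, Tap2, Tapbp, Nlrc5, Psmb8, Psmb9 and Psmb10) were followed in single cells of the post-ischemic mouse kidney. They were taken by symbol from the 32285 genes listed for each library, and 10 of 10 were present. The 2 libraries came from male C57BL/6 mice, 9 weeks old, whose kidneys both underwent ischemia and reperfusion and were taken 24 h after surgery. The control mouse received saline and the other mouse JPI-289, an inhibitor of poly(ADP-ribose) polymerase, at 100 mg/kg into the peritoneal cavity just before reperfusion. Each condition had 1 library, so no test between the conditions was possible, and the values compare these 2 libraries. Intervals are 95% and cover counting error only. No sham-operated kidney was analysed here, so the values do not separate ischemia from the resting state.

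MHC class I molecules present peptides from the cytosol to CD8 T cells. The proteasome cuts proteins into peptides, the TAP transporter carries the peptides into the endoplasmic reticulum, and there a loading complex places them on a heavy chain paired with beta-2 microglobulin. Interferon gamma makes cells replace the catalytic subunits of the standard proteasome (Psmb5, Psmb6, Psmb7) by the immunosubunits Psmb8, Psmb9 and Psmb10. In the kidney, endothelial and myeloid cells are known for high class I expression, and tubular cells for low expression at rest.

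Control had 38328760 unique molecular identifiers (UMIs, one per captured transcript) and JPI-289 had 35548396. After cell calling, 3743 control and 5025 JPI-289 cells were kept, with medians of 2063 and 1872 UMIs. The libraries shared 23 cell barcodes. Cells were clustered and named from marker genes, and UMIs were summed per class and library and given per 1000000 UMIs of that class (CPM). The 7 classes compared were proximal tubule-like (PT-like, 1861 control and 1692 JPI-289 cells), endothelial-like (EC-like, 483 and 528), loop and distal tubule-like (450 and 605), collecting duct-like (104 and 415), stroma-like (181 and 146), neutrophil-like (198 and 656) and macrophage-like (192 and 295). Each of the 7 PT-like clusters came almost wholly from 1 library, so in PT-like cells the clusters and the conditions cannot be told apart. Of the collecting duct-like cells of JPI-289, 279 were in a cluster with 1 control cell. The summed level of the class's own markers was 9203 CPM in control and 4254 CPM in JPI-289 for PT-like cells. It was 12957 and 10241 CPM for EC-like cells and 8936 and 3631 CPM for macrophage-like cells. The part of these shifts in the results below was not tested.

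Of the 10 genes, 7 lie on chromosome 17 (GRCm38, GENCODE vM21), in or beside the major histocompatibility complex. H2-K1 is at chr17:33996017-34000347 (minus strand) and H2-D1 at chr17:35262730-35267499 (plus strand). Tap1 (chr17:34187553-34197225, plus) and Psmb9 (chr17:34181987-34187764, minus) are neighbours transcribed away from each other, and their exons share 212 bases on opposite strands in GENCODE, whose models of the genes overlap, while their RefSeq starts lie apart. Psmb8 (chr17:34197721-34201454, plus) and Tap2 (chr17:34203527-34216321, plus) follow on the same stretch, and Tapbp is at chr17:33915899-33929292 (plus). B2m is on chromosome 2 (chr2:122147686-122153083, plus), and Nlrc5 (chr8:94434356-94527272, plus) and Psmb10 (chr8:105935735-105938444, minus) are on chromosome 8. Exons of Psmb8, Tap2 and Nlrc5 share 498, 698 and 78 bases with other genes on the opposite strand. Whether the counting used strand is not given in the sources used here, so reads of these overlaps and of the Tap1 and Psmb9 overlap are uncertain. Of the 90-base windows of annotated transcripts, 1.54% for H2-K1 and 4.25% for H2-D1 also occur in other genes, mainly other class I genes and pseudogenes. For B2m, Tap1, Tap2, Nlrc5, Psmb8, Psmb9 and Psmb10 the share was 0%. The windows cover whole transcripts and only exact matches were counted, so these are not shares of the reads of a 5′ library.

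RefSeq promoters (GRCm38.p6) were at hand for 8 of the 10 genes, and the 250 bases before the start were searched on both strands for 5 motifs. The heavy chains and B2m are shown because they carry the interferon and NF-kB type motifs. Psmb8, Psmb10 and the interval between the RefSeq starts of Tap1 and Psmb9 are shown because the immunosubunits differed between the libraries in EC-like cells. Each sequence is written in the direction of transcription (the interval on the plus strand), with the matches in capitals.
H2-K1, chr17:34000348-34000597, minus strand: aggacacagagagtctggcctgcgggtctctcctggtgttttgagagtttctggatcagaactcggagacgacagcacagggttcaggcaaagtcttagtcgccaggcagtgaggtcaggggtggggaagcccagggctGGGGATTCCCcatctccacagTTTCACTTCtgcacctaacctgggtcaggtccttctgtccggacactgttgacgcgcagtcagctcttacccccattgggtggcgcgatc
H2-D1, chr17:35262844-35263093, plus strand: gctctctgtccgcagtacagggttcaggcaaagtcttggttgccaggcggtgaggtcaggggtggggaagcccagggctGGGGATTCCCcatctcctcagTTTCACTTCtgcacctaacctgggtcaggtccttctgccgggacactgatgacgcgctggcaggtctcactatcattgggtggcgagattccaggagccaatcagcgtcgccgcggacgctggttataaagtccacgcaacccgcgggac
B2m, chr2:122147437-122147686, plus strand: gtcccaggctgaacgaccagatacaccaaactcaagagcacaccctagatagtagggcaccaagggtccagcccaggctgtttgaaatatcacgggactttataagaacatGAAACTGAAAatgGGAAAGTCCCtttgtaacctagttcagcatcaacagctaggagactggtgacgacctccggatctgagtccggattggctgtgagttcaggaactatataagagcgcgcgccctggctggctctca
Tap1 to Psmb9, chr17:34187331-34187555, plus strand: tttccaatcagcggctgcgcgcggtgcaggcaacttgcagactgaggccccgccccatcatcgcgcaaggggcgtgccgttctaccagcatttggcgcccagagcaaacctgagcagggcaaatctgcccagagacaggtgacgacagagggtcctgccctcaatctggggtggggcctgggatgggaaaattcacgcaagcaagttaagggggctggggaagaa
Psmb8, chr17:34197945-34198194, plus strand: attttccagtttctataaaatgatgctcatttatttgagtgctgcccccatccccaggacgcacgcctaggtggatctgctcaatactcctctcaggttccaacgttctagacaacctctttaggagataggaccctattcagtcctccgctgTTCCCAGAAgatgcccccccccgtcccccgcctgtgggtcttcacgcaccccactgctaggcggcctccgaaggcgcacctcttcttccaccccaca
Psmb10, chr8:105938393-105938642, minus strand: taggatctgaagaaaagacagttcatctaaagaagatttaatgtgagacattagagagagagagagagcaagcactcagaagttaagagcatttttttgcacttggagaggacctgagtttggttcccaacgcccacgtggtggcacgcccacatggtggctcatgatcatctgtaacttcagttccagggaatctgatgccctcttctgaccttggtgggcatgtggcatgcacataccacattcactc

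H2-K1 and H2-D1 hold the same pair of matches, a kappaB motif (GGG, any 2 bases, TT, any base, CC) followed after 11 bases by a short form of the interferon-stimulated response element (GAANNGAAA, read on the other strand). B2m holds the full element (a pair of GAAA with any 2 bases between) and, after 3 bases, a kappaB match on the other strand. Among 32851 promoter windows of the same length, 4.11% held the kappaB motif, 6.31% the short element and 2.98% the full element. Psmb8 held a match to the gamma-activated site (TTCNNNGAA), which 7.02% of windows held. None of these 4 motifs was found in the 225 bases between the RefSeq starts of Tap1 and Psmb9, nor in the windows of Psmb10 and Tapbp. Among the standard subunits, the window of Psmb6 also held the short element, and that of Psmb5 held none of the 4. The fifth, the CCAAT box, is not capitalised; it was in 33.8% of windows and in those of H2-K1, H2-D1, B2m, Tap1, Tapbp and Psmb9. A match is a description of the letters and not a site of binding.

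Among the 7 classes the heavy chains were highest in endothelial and immune cells and lowest in PT-like cells. H2-K1, the heavy chain of the H-2K molecule, was at 766 CPM (95% interval 729 to 805) in control and 1001 CPM (955 to 1049) in JPI-289 EC-like cells. In PT-like cells it was at 80.9 CPM (74.9 to 87.3) and 75.2 CPM (69.1 to 81.7). The order in control was EC-like, macrophage-like and then neutrophil-like cells, whose intervals did not meet, and that of neutrophil-like cells overlapped the next class, collecting duct-like cells. H2-D1, the heavy chain of H-2D, was at 1680 CPM (1624 to 1737) and 2146 CPM (2077 to 2216) in EC-like cells. Its control level in neutrophil-like cells, 1617 CPM (1501 to 1740), overlapped that of EC-like cells. Outside these classes, with JPI-289 the 99 lymphocyte-like cells had the highest levels of both, 2792 CPM for H2-K1 and 2432 CPM for H2-D1. Control had 8 such cells, so lymphocyte-like cells were not compared between the libraries.

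B2m, the light chain shared by all class I molecules, had the same 3 highest classes as H2-K1 in control, in the same order. It was at 905 CPM (865 to 948) in EC-like, 773 CPM (723 to 824) in macrophage-like and 296 CPM (247 to 351) in neutrophil-like cells. With JPI-289 the values were 937 CPM (892 to 984), 911 CPM (861 to 963) and 268 CPM (243 to 294). In control the neutrophil-like value overlapped that of stroma-like cells, 294 CPM (258 to 333). Its lowest level among the 7 classes was in loop and distal tubule-like cells, at 51.5 CPM (40.2 to 65) in control and 37.7 CPM (29.4 to 47.8) in JPI-289.

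**Figure D1:**
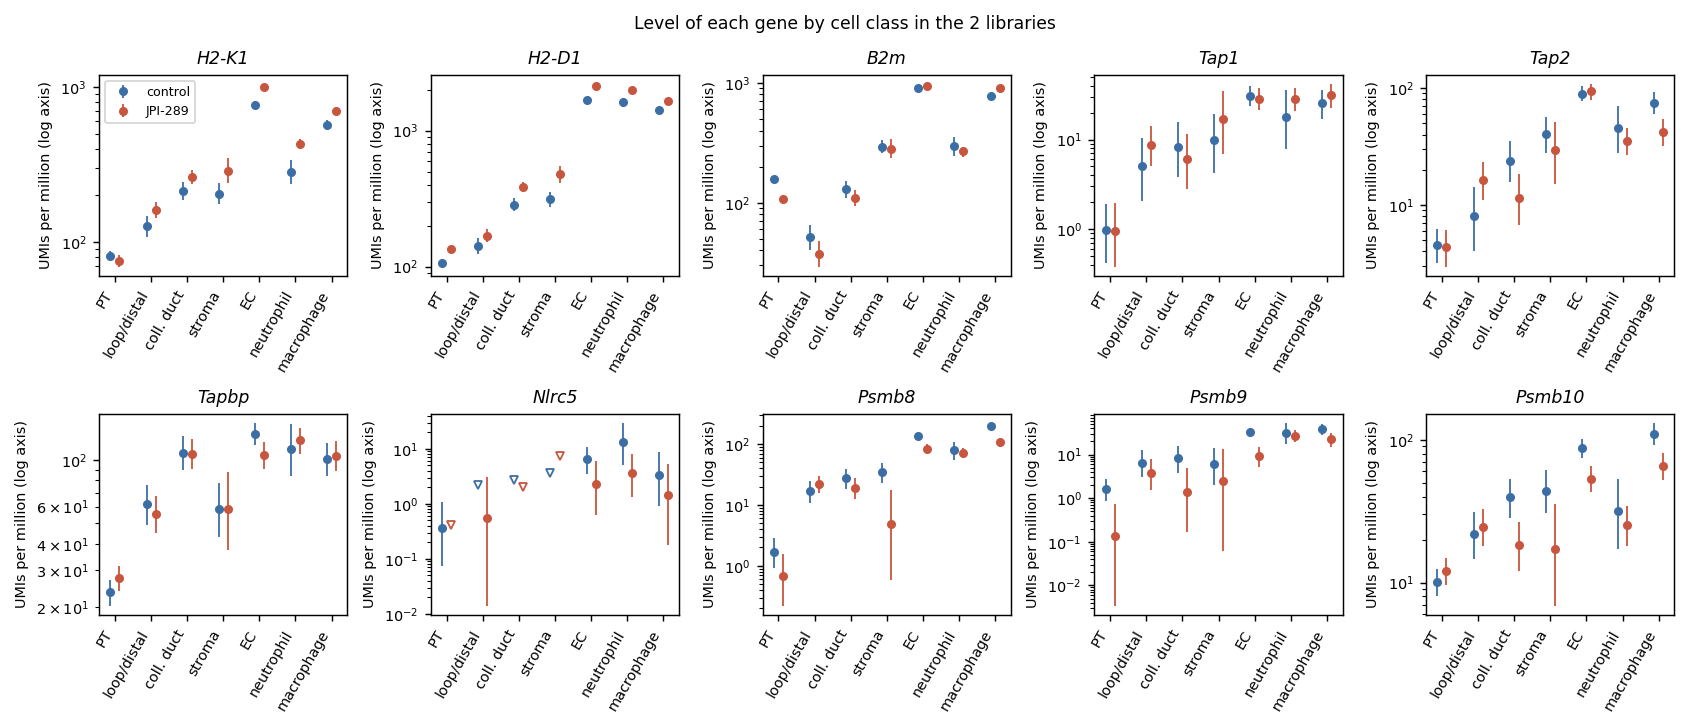
CPM (log axis) of each of the 10 genes in 7 cell classes, with control in blue and JPI-289 in red. Bars are exact 95% Poisson intervals, and open triangles mark a count of 0 at the level of 3 UMIs; in EC-like cells H2-D1 was at 1680 and 2146 CPM and Psmb9 at 32.6 and 9.19 CPM.

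The peptide transporter was low in PT-like cells. Tap1 was at 30.6 CPM (23.5 to 39.2) in control and 28.7 CPM (21.3 to 37.9) in JPI-289 EC-like cells, against 0.974 CPM (8 UMIs) and 0.945 CPM (7 UMIs) in PT-like cells. Tap2, the partner chain of the transporter, was at 89.9 CPM (77.3 to 104) and 93.6 CPM (79.8 to 109) in EC-like cells. In control it was at 75 CPM (60.2 to 92.3) in macrophage-like, 45.1 CPM (27.6 to 69.7) in neutrophil-like, 40.4 CPM (27.8 to 56.7) in stroma-like and 23.8 CPM (15.6 to 34.9) in collecting duct-like cells, each overlapping the next, and at 4.5 CPM (3.17 to 6.21) in PT-like cells. Tapbp, or tapasin, which bridges the transporter and the heavy chain, was more even: its control levels ran from 23.5 CPM in PT-like to 133 CPM in EC-like cells. Tapbp exons overlap those of Zbtb22 on the same strand, so part of its count is uncertain. Nlrc5, the transactivator of class I genes, had 26 UMIs in all control cells and 21 in all JPI-289 cells. Of these, EC-like cells held 13 and 4 UMIs and neutrophil-like cells 6 and 6, and collecting duct-like and stroma-like cells held 0 in both libraries. Outside the 7 classes, lymphocyte-like cells held 0 UMIs in control and 7 in JPI-289, at 32.7 CPM (13.2 to 67.5), the highest level in that library. The interval of the Nlrc5 log2 ratio included 0 in EC-like, neutrophil-like and macrophage-like cells, so no difference was detectable at this depth.

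Among the 7 classes the immunosubunits had their highest control levels in macrophage-like cells, though for Psmb9 and Psmb10 the intervals overlapped those of EC-like cells. Psmb8, the immunosubunit that replaces Psmb5, was at 195 CPM (171 to 222) there in control and 107 CPM (90.9 to 126) in JPI-289. Psmb9, which replaces Psmb6, was at 37.9 CPM (27.7 to 50.7) and 22.5 CPM (15.3 to 32). Psmb10, which replaces Psmb7, was at 110 CPM (92.3 to 131) and 65.4 CPM (52.6 to 80.3). The intervals of the 2 libraries did not meet for Psmb8 and Psmb10 and overlapped for Psmb9. In PT-like cells Psmb8 had 14 UMIs in control and 5 in JPI-289, Psmb9 had 13 and 1, and Psmb10 had 83 and 89.

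At a depth of 1000 UMIs per cell, the share of EC-like cells with a UMI of H2-D1 was 75.8% (71 to 80.2) in control and 83.8% (79.6 to 87.4) in JPI-289, against 78.7% and 79.0% without thinning. Psmb9 had a UMI in 4.27% (2.41 to 6.95) and 0.27% (0.007 to 1.5), against 11.4% and 2.84% without thinning. Thinning left 351 and 370 EC-like cells and dropped 132 and 158 shallower ones. In macrophage-like cells the share for Psmb8 was 21% (15 to 28.1, 162 cells) in control and 10.1% (6.75 to 14.3, 268 cells) in JPI-289, against 57.3% and 35.3% without thinning. As a background from free RNA, red blood cell-like cells of similar depth (medians of 1534.5 and 1531 UMIs) had H2-D1 in 3.51% and 3.19%, and Psmb8 and Psmb9 in 0 of 57 and 0 of 94 cells. A count of 0 of 57 cells leaves a share of up to 6.27% (exact upper bound).

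EC-like cells had fewer immunosubunit UMIs with JPI-289 and slightly more heavy chain UMIs. Psmb8 had 272 UMIs in control and 147 in JPI-289, a log2 ratio of JPI-289 over control of -0.67 (-0.97 to -0.37). Psmb9 had 66 and 16 UMIs, a log2 ratio of -1.79 (-2.71 to -1.02). Psmb10 had 177 and 93 UMIs, a log2 ratio of -0.71 (-1.09 to -0.34). These 3 of the 9 genes with at least 50 UMIs were at least 1.5-fold lower, where 26.6% of all 7602 genes with that many UMIs were, and 0 were 1.5-fold higher (15.9% of all). The count of 3 is close to what that background share gives for 9 genes. H2-K1 and H2-D1 had log2 ratios of 0.39 (0.29 to 0.49) and 0.35 (0.29 to 0.42), B2m 0.05 (-0.05 to 0.15), Tap1 -0.09 (-0.66 to 0.47), Tap2 0.06 (-0.25 to 0.37) and Tapbp -0.34 (-0.62 to -0.06). The median over the 9 genes was -0.09, and the median of all genes in EC-like cells was -0.18, so relative to it Psmb8 was at -0.49, Psmb10 at -0.53 and Psmb9 at -1.61. Centred in this way, Psmb8 and Psmb10 were no longer 1.5-fold lower, and the count of 3 became 1. Psmb10 was also short of 1.5-fold with each cell weighted equally (-0.48), and Psmb8 with cells called by total UMIs alone (-0.58) and with cells of at least 1000 UMIs (-0.54). With the 5% of cells of highest doublet score left out the cells regrouped, EC-like cells numbered 590 and 872, and H2-K1 was at -0.03, H2-D1 at -0.15, B2m at -0.43 and Psmb8 at -1.13. The markers of stroma summed to 850 CPM in control and 176 CPM in JPI-289 EC-like cells, those of macrophages to 69.1 and 34.5 CPM and those of platelets to 323 and 180 CPM. Other lists rose: loop and distal tubule from 98.7 to 249 CPM, neutrophils from 27.15 to 111 CPM, injured PT from 161 to 307 CPM and red blood cells from 110 to 159 CPM. Their part in the result was not tested.

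Psmb8 was lower in both EC-like clusters. In the deeper one (263 control and 326 JPI-289 cells) Psmb8 had a log2 ratio of -0.63 (-0.95 to -0.32), Psmb9 -1.64 (-2.61 to -0.82) and Psmb10 -0.77 (-1.17 to -0.39). In the shallower one (220 and 202 cells) Psmb8 had 35 and 9 UMIs, a log2 ratio of -1.25 (-2.55 to -0.22). Psmb9 had 13 and 1 UMIs in this cluster and Psmb10 12 and 6, at 37.0 CPM (19.1 to 64.7) and 29.1 CPM (10.7 to 63.3), so no difference of Psmb10 was detectable there. The log2 ratio of H2-K1 was 0.39 (0.29 to 0.49) in the deeper and -0.3 (-0.74 to 0.11) in the shallower.

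Macrophage-like cells had the immunosubunits and Tap2 lower with JPI-289. Psmb8 had 232 and 148 UMIs, a log2 ratio of -0.86 (-1.17 to -0.56). Psmb9 had 45 and 31, at -0.74 (-1.46 to -0.06), and Psmb10 131 and 90, at -0.75 (-1.16 to -0.36). Tap2 had 89 and 58 UMIs, at -0.83 (-1.33 to -0.34). So 4 of the 9 genes with at least 50 UMIs were 1.5-fold lower, against 22.3% of all genes, and 0 were higher, against 21.3%. H2-K1 was at 0.29 (0.15 to 0.44), H2-D1 at 0.21 (0.11 to 0.3), B2m at 0.24 (0.11 to 0.36), Tap1 at 0.3 (-0.4 to 1.03) and Tapbp at 0.05 (-0.31 to 0.41), and the median over the 9 genes was 0.05. Marker sums of red blood cells in this class were 59.8 CPM in control and 1431 CPM in JPI-289, and of platelets 2701 and 1418 CPM, and their part was not tested.

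The macrophage-like class was made of a cluster led by Cd74, C1qb and H2-Aa (123 control and 158 JPI-289 cells) and one led by Lyz2, Chil3 and Ccl6 (69 and 137 cells). In the C1q cluster, Psmb8 had 145 and 63 UMIs (-1.14, -1.6 to -0.71), Psmb9 31 and 12 (-1.28, -2.41 to -0.32) and Psmb10 67 and 33 (-0.96, -1.62 to -0.35). In the Lyz2 cluster, Psmb8 had 87 and 85 UMIs (-0.43, -0.88 to 0.02), Psmb9 14 and 19 (0.03, -1.03 to 1.15) and Psmb10 64 and 57 (-0.56, -1.11 to -0.03). Tap2 was lower in both, at -0.67 (-1.33 to -0.05) and -0.82 (-1.67 to -0.004), and B2m was at 0.5 (0.34 to 0.65) in the C1q cluster and 0.07 (-0.14 to 0.28) in the Lyz2 cluster.

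**Figure D2:**
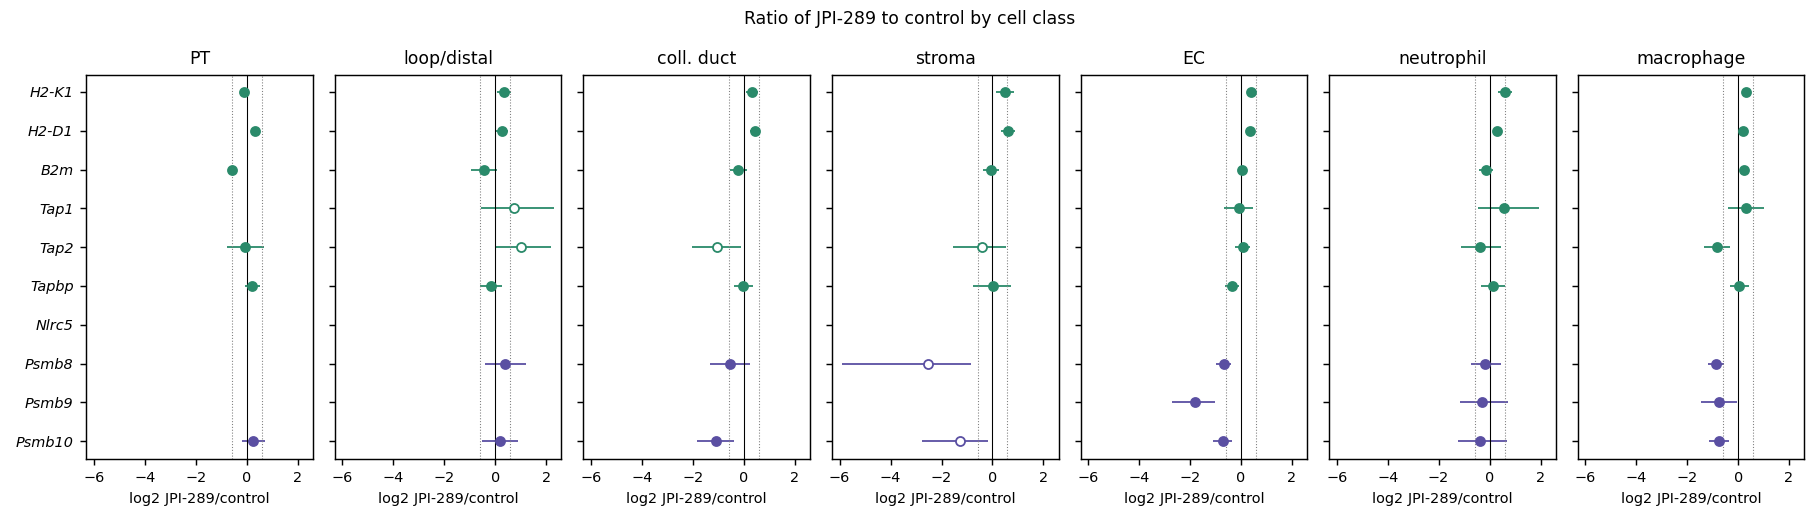
Log2 ratio of JPI-289 over control for each gene in 7 cell classes, with exact 95% binomial intervals; proteasome genes are purple and the others green, open points have 20 to 50 UMIs, genes under 20 UMIs are left out, and dotted lines mark 1.5-fold. In EC-like and macrophage-like cells the 3 immunosubunits lay below the lower dotted line and H2-K1 and H2-D1 between 0 and the upper one.

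In neutrophil-like cells H2-K1 was past 1.5-fold and H2-D1 was higher by less. H2-K1 had 125 UMIs (282 CPM, 235 to 336) in control and 697 UMIs (429 CPM, 398 to 462) in JPI-289, a log2 ratio of 0.6 (0.33 to 0.89), and was the 1 of 9 genes that was 1.5-fold higher, against 25.7% of all genes. None of the 9 was 1.5-fold lower, against 14.4% of all genes. H2-D1 was at 0.3 (0.19 to 0.42), Tap1 at 0.58 (-0.45 to 1.94), B2m at -0.15 (-0.43 to 0.15), Psmb8 at -0.17 (-0.72 to 0.43), Psmb9 at -0.29 (-1.15 to 0.73) and Psmb10 at -0.36 (-1.23 to 0.67). The H2-K1 value lay just past 1.5-fold. The median of all genes was 0.09 in this class, and relative to it H2-K1 was short of 1.5-fold. Over 13 alternatives H2-K1 ran from 0.51 to 0.70 and was past 1.5-fold in 11. Among the 13, the limit of at least 100 UMIs only selects genes and cannot move this value. H2-D1 was at 0.05 with cells called by total UMIs alone. Control held 443291 UMIs in this class and JPI-289 1625602. The markers of EC summed to 435 and 16 CPM in this class and those of PT to 1049 and 380 CPM, and their part was not tested.

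Of the 6 genes with at least 50 UMIs in PT-like cells, 0 were 1.5-fold lower (33.2% of all genes) and 0 higher (19.3% of all genes). B2m was the lowest, with 1306 UMIs (159 CPM, 150 to 168) and 795 UMIs (107 CPM, 100 to 115), a log2 ratio of -0.57 (-0.7 to -0.44). H2-D1 was at 0.32 (0.19 to 0.45) and H2-K1 at -0.11 (-0.27 to 0.06). The median of all genes was at -0.20 in PT-like cells, so relative to it H2-K1 was at 0.10 and B2m at -0.37 (its ratio was -0.33 with each cell weighted equally). Across PT-like clusters of at least 20 cells, B2m ran from 39.5 to 212 CPM in 5 control clusters and from 80.9 to 152 CPM in 3 JPI-289 clusters, so the ranges overlapped.

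Loop and distal tubule-like cells had 6 genes with at least 50 UMIs, of which 0 were 1.5-fold higher (18.4% of all genes) or lower (17.6%). H2-K1 was at 126 and 160 CPM (log2 ratio 0.35, 0.08 to 0.63) and Psmb8 at 16.7 and 21.9 CPM (0.38, -0.38 to 1.2). Tap2 had 11 and 30 UMIs, a log2 ratio of 1 (0.00 to 2.18). In collecting duct-like cells Psmb10 had 43 and 27 UMIs, at -1.1 (-1.86 to -0.38), and was the 1 of 6 genes 1.5-fold lower (19.8% of all genes), while 0 were higher (19.9%). Tap2 had 26 and 17 UMIs there, at -1.04 (-2.02 to -0.11). Within the Aqp2-led cluster that both libraries share (89 control and 114 JPI-289 cells), Psmb10 had 43 and 19 UMIs, at -1.09 (-1.98 to -0.3), and H2-D1 was at 0.59 (0.38 to 0.81). Over the whole class H2-D1 was at 0.43 (0.23 to 0.64), but at -0.16 with each cell weighted equally. The class's own markers summed to 13347 and 7940 CPM, those of neutrophils to 8.25 and 485 CPM, of red blood cells to 22 and 974 CPM and of EC to 101 and 190 CPM, and their part was not tested.

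Stroma-like cells, with 817398 and 409460 UMIs, had 4 genes with at least 50 UMIs. H2-D1 had 255 and 196 UMIs, at 0.62 (0.34 to 0.89), and was the 1 of 4 that was 1.5-fold higher (25.5% of all genes), while 0 were lower (21% of all genes). The median of all genes was 0.05 in stroma-like cells, and relative to it H2-D1 was short of 1.5-fold. Over 13 alternatives H2-D1 ran from 0.41 to 0.72 and was past 1.5-fold in 10. Here too the limit of at least 100 UMIs is among the 13 and cannot move the value. In this class the marker sums in control and JPI-289 were 17731 and 8477 CPM for stroma, 964 and 1404 CPM for EC and 13.5 and 615 CPM for neutrophils. Their part in the H2-D1 value was not tested. Among the sparser ones Psmb8 had 28 and 2 UMIs, a log2 ratio of -2.51 (-5.92 to -0.82), and Psmb10 had 36 and 7, at -1.29 (-2.78 to -0.18). H2-K1 was at 0.5 (0.14 to 0.84), but at -0.12 with cells called by total UMIs alone and 1.22 with each cell weighted equally.

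The immunosubunits were then set against the standard subunits they replace. The UMI share of a subunit depends on how well each transcript is captured, so the change of a share between libraries is read here and not its size. In EC-like cells Psmb8 made up 32.5% (29.3 to 35.8) of Psmb8 and Psmb5 UMIs in control and 22.8% (19.6 to 26.2) in JPI-289. Psmb9 made up 9.78% (7.64 to 12.3) and 2.69% (1.54 to 4.33) with Psmb6, and Psmb10 43.2% (38.3 to 48.1) and 27.6% (22.9 to 32.7) with Psmb7. Psmb5, Psmb6 and Psmb7 themselves were at log2 ratios of 0.04, 0.15 and 0.28 in EC-like cells, and 27.8% of the 90-base windows of Psmb5 also occur in other genes. All 3 shares were thus lower with JPI-289, with intervals that did not meet.

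Over the 3 pairs together, the immunosubunit share was 26.8% (24.8 to 28.8) in control and 16.2% (14.4 to 18.1) in JPI-289 EC-like cells, a log2 odds change of -0.92 (-1.17 to -0.67). In macrophage-like cells it was 34.6% (31.9 to 37.4) and 23.5% (21.1 to 26.1), a change of -0.78 (-1.05 to -0.51). The changes were -0.56 (-1.08 to -0.04) in neutrophil-like, -1.21 (-1.74 to -0.68) in collecting duct-like, -1.6 (-2.74 to -0.6) in stroma-like and -0.71 (-1.12 to -0.3) in PT-like cells. In neutrophil-like cells Psmb5, Psmb6 and Psmb7 were at -0.17 (-0.59 to 0.28), 0.68 (0.22 to 1.21) and 0.76 (0.05 to 1.62), and the intervals of the 3 immunosubunits included 0. The stroma-like value rests on 10 immunosubunit UMIs in JPI-289 and was -0.39 with each cell weighted equally. In PT-like cells the share was 1.56% and 0.96%, and Psmb5, Psmb6 and Psmb7 had log2 ratios of 0.52, 0.73 and 0.89. Loop and distal tubule-like cells had 5.44% (4.2 to 6.92) and 5.14% (4.16 to 6.27), a change of -0.08 (-0.58 to 0.42). The share was 43.3% and 27.3% in the C1q macrophage cluster (change -1.02, -1.44 to -0.61) and 26.7% and 21.5% in the Lyz2 cluster (-0.41, -0.78 to -0.04).

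**Figure D3:**
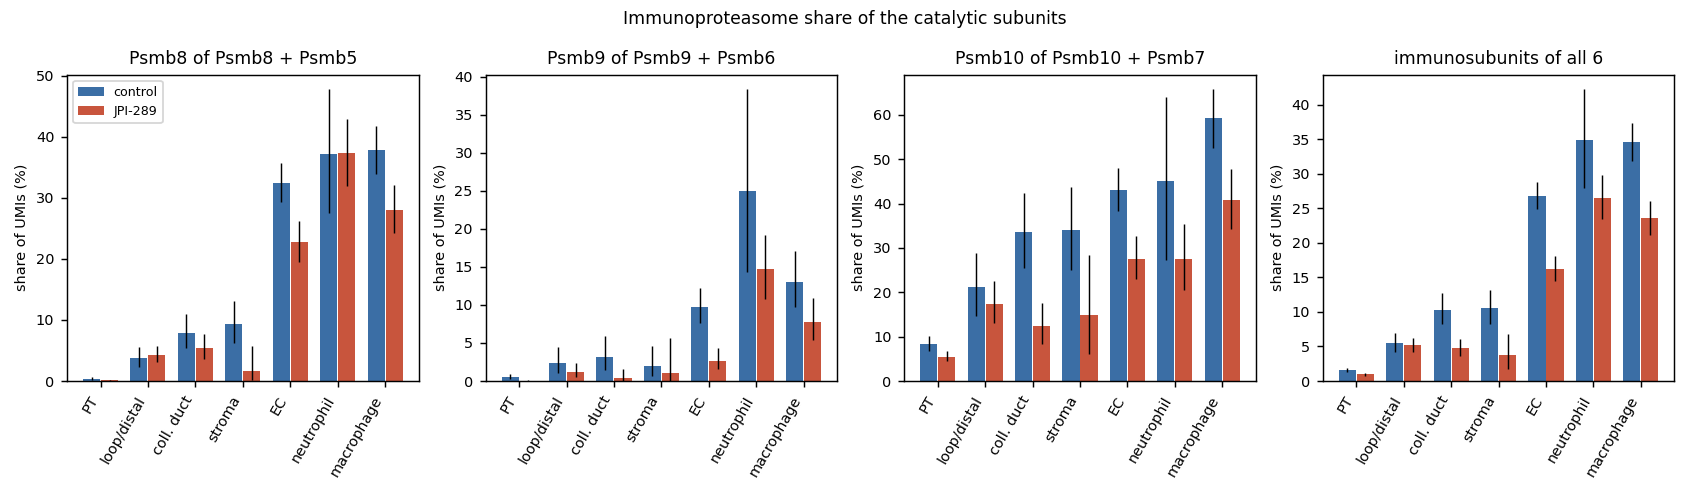
Share of UMIs (%) of each immunosubunit in the sum with the standard subunit it replaces, and of the 3 immunosubunits in all 6, in control (blue) and JPI-289 (red) cells of 7 classes, with exact 95% binomial intervals. For all 6 subunits the share was 26.8% and 16.2% in EC-like and 5.44% and 5.14% in loop and distal tubule-like cells.

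Other genes of the pathway were taken from lists. In EC-like cells, 8 other class I and class I-like heavy chains reached 50 UMIs, of which 3 were 1.5-fold higher and 3 lower (15.9% and 26.6% of all genes). H2-Q6 had 102 and 278 UMIs, at 1.66 (1.33 to 2.01), H2-Q7 98 and 154, at 0.87 (0.5 to 1.25), and H2-Q4 329 and 456, at 0.69 (0.48 to 0.9). H2-T23, the non-classical Qa-1 heavy chain, had 741 and 177 UMIs, at -1.84 (-2.09 to -1.61). Hfe, a class I-like regulator of iron uptake, had 67 and 16, at -1.81 (-2.73 to -1.05), and Fcgrt, the heavy chain of the neonatal Fc receptor, was the third, with 301 and 147 UMIs. Macrophage-like cells had H2-Q6 at 2.32 (1.44 to 3.44), H2-Q4 at 1.18 (0.7 to 1.7), H2-T23 at -1.36 (-1.81 to -0.93) and Hfe at -1.59 (-2.52 to -0.79). H2-T23 was at 0.62 (0.32 to 0.93) in PT-like cells. Of the 90-base windows, 13.2% for H2-Q6, 13.8% for H2-Q7, 3.7% for H2-Q4 and 4.01% for H2-T23 also occur in other genes, so reads may be split among these chains or lost.

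Among the proteasome activators, Psme2, a subunit of the interferon-induced PA28 cap, was at -0.65 (-0.91 to -0.4) in EC-like and -0.91 (-1.24 to -0.59) in macrophage-like cells. Its partner Psme1 was at -0.3 (-0.52 to -0.08) and -0.82 (-1.11 to -0.54). Psme3, a nuclear activator, was at 0.6 (0.2 to 1) and -0.13 (-0.63 to 0.37), and Psme4, which caps the proteasome in the nucleus, at 0.1 (-0.38 to 0.59) and 1.03 (0.44 to 1.66). The other 20S subunits and assembly factors had a median of 0.07 over 16 genes in EC-like and 0.01 over 14 in macrophage-like cells. In PT-like cells the median over 16 was 0.83, and 10 were 1.5-fold higher and 0 lower (19.3% and 33.2% of all genes). Psma5 had 887 and 2244 UMIs there (1.49, 1.38 to 1.6) and Psma2 1711 and 3751 (1.28, 1.2 to 1.37).

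Of the 13 measured genes of peptide loading and trimming in EC-like cells, 1 was higher (Tpp2, a peptidase, 0.59) and 1 lower (Tapbpl, a tapasin relative, -1.12, -1.95 to -0.39), where 15.9% and 26.6% of all genes were. Macrophage-like cells had 5 of 12 lower (22.3% of all genes) and 0 higher (21.3%), with a median of -0.54. Among them were Hspa5, an endoplasmic reticulum chaperone, at -1 (-1.16 to -0.83), Canx, which holds new heavy chains, at -1.05 (-1.33 to -0.79), and Lap3, a cytosolic peptidase, at -1.06 (-1.7 to -0.46). In PT-like cells 3 of 13 were lower (33.2% of all genes) and 1 higher (19.3%). Calr, the calreticulin of the loading complex, had 1749 and 823 UMIs, at -0.94 (-1.06 to -0.82), and Uggt1, which recalls unfolded chains for loading, 164 and 64, at -1.2 (-1.65 to -0.78).

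The interferon and NF-kB signal genes had 7 of 20 lower (26.6% of all genes) and 1 higher (15.9%) in EC-like cells, with a median of -0.21, near the median of all genes. Irf2 had 131 and 10 UMIs, at -3.43 (-4.59 to -2.57). Irf1, an interferon-induced activator of class I genes, had 235 and 99 UMIs. The 3 genes of this list with most UMIs in EC-like cells were higher with JPI-289, by less than 1.5-fold. Ifnar2 was at 0.43 (0.22 to 0.64), Jak1 at 0.53 (0.3 to 0.75) and Ifngr1 at 0.29 (0.02 to 0.56). The 1 gene past 1.5-fold higher was Jak2, with 60 and 79 UMIs, at 0.61 (0.11 to 1.12). In PT-like cells 10 of 22 were lower (33.2% of all genes) and 4 higher (19.3%), the latter close to its background. Irf1 had 174 and 23 UMIs there, at -2.74 (-3.46 to -2.14), but 118 of the 174 control UMIs were in 1 control cluster of 230 cells (155 CPM). The other 3 control clusters of over 200 cells were at 2.75 to 12.2 CPM and the 3 JPI-289 clusters at 1.74 to 4.69 CPM. The control cluster of 230 cells had Snhg11, Gm26917 and Neat1 among its leading genes. A cluster of 254 JPI-289 and 12 control cells, led by Snhg11, Neat1 and Gm26917, was left unnamed and is not in PT-like cells. The part of this in the PT-like signal gene values was not tested. Rela, an NF-kB subunit, had 125 and 399 UMIs in PT-like cells, at 1.82 (1.53 to 2.13), and Ifngr2, a chain of the interferon gamma receptor, 196 and 485, at 1.46 (1.21 to 1.7). Macrophage-like cells had 1 of 15 lower (22.3% of all genes), Irf2 at -1.81 (-2.27 to -1.38), and 4 higher (21.3%), among them Ifnar2, a chain of the type I interferon receptor, at 0.81 (0.58 to 1.04). Irf1 in macrophage-like cells had 101 and 117 UMIs, a log2 ratio near 0. The brakes of the signal had 2 of 4 lower in EC-like cells (26.6% of all genes), Socs1 at -0.8 (-1.67 to -0.01) and Usp18 at -1.08 (-2.04 to -0.24).

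No interferon gene reached 50 UMIs in any class. Ifng, which encodes interferon gamma, had 0 UMIs in all control cells and 19 in JPI-289, and all 19 were in lymphocyte-like cells (88.9 CPM). The control lymphocyte-like cells held 15281 UMIs, so a count of 0 leaves a level of up to 196 CPM (3 UMIs) and no difference was detectable. Ifnb1 had 0 UMIs in both libraries. Of the receptors for class I, Pirb, an inhibitory receptor of myeloid cells, had 441 and 167 UMIs in macrophage-like cells, at -1.61 (-1.88 to -1.36), and 125 and 249 in neutrophil-like cells, at -0.88 (-1.2 to -0.56). Cd8a, a chain of the co-receptor on T cells, had 8 UMIs in control and 6 in JPI-289 over all cells.

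**Figure D4:**
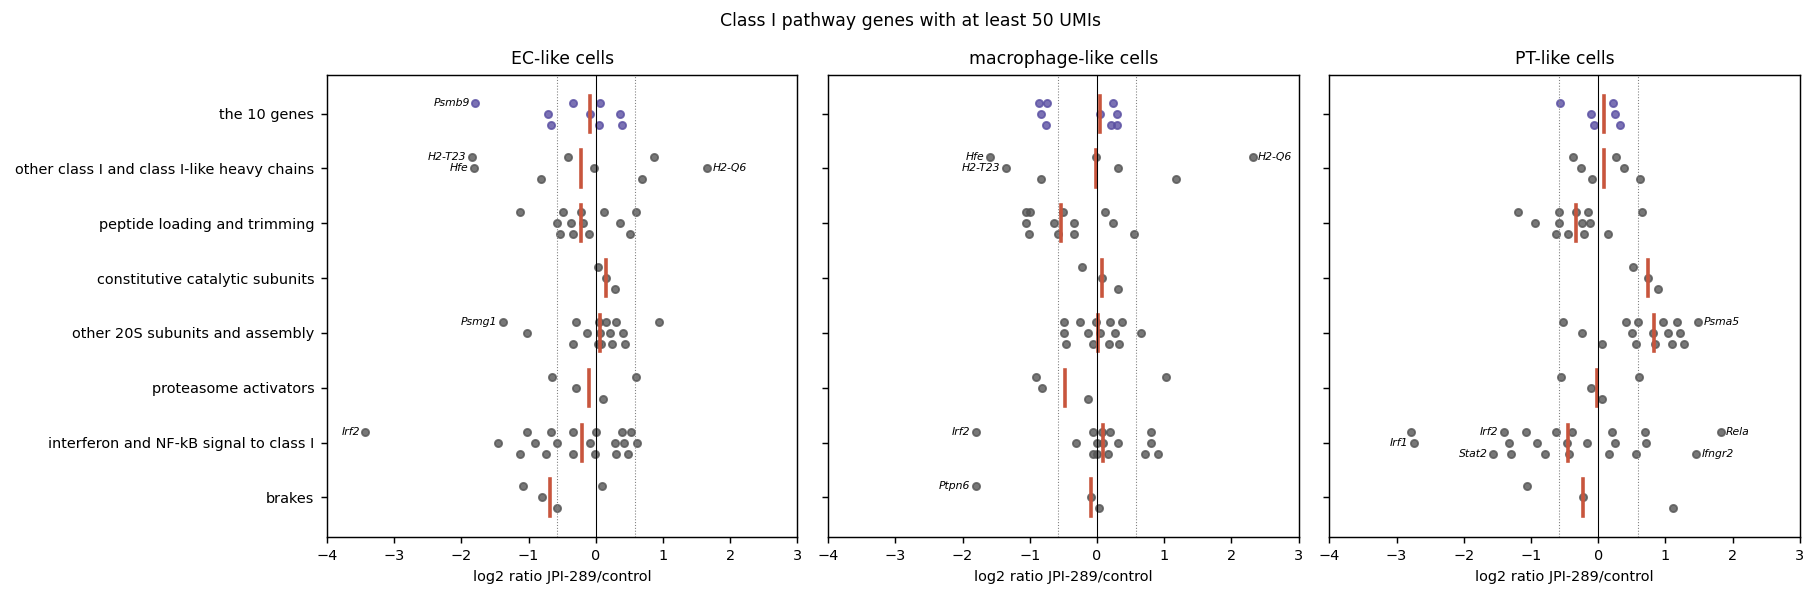
Log2 ratio of JPI-289 over control of each gene with at least 50 UMIs, by list, in EC-like, macrophage-like and PT-like cells; the red line is the list median, dotted lines mark 1.5-fold, and some of the genes farthest from 0 are named. The 20S subunits had medians of 0.07, 0.01 and 0.83 in the 3 classes.

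Over the 18 pairs of class and library with at least 20 cells, the 10 genes mostly varied together. The likeness of log2(CPM + 10) was highest for H2-K1 with Tap1 (Pearson r = 0.95) and lowest for Tapbp with Nlrc5 (r = 0.34). Nlrc5 had 26 UMIs in control and 21 in JPI-289, so the 10 CPM added weigh on its r values. Without Nlrc5 the lowest was Tapbp with Psmb10 (r = 0.576). The 5 other genes most like the mean of the 10, among 7380 compared, were Arhgef1 (r = 0.94), Klf2 (0.93), Zfp36l2 (0.92), Smarcd2 (0.92) and Cyth1 (0.92). The pairs share libraries and depth, so these values describe the pattern over classes.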

How the data were processed

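Single-cell libraries (10x 5′ kit v2) of 1 control and 1 JPI-289 kidney were used. The values are UMI counts as deposited by the authors, unfiltered and not normalized, made with Cell Ranger 5.0.1 on mm10 before cell calling. The file header names another Cell Ranger release. Cells were called by total UMIs, then by comparison with free RNA for barcodes of at least 500 UMIs (false discovery rate 0.01), and cells over 50% mitochondrial UMIs were dropped. Leiden clusters (2000 variable genes without the listed genes, 30 components, resolution 1, no correction between libraries) were named from marker lists. Distal and unnamed clusters were clustered again, a step and a naming rule set after the clusters were seen. Scrublet marked 1 and 7 cells and so did not work, and doublets were kept. UMIs were summed per class, and log2 ratios had 0.5 UMIs added. Genes with at least 50 UMIs were counted past 1.5-fold, and medians used members with at least 20. The genes named are all 10 members and the standard subunits and, per list, the 3 with most UMIs and the 2 with the largest difference in each direction. Fcgrt in EC-like cells, Irf1 in EC-like and macrophage-like cells, Ifng, Ifnb1 and Cd8a were named after their values were seen. The members and lists were chosen with earlier results of these data known. Intervals are exact Poisson for CPM and exact binomial for ratios and shares. The ratio intervals, on independent simulated counts, and the cell calling, on simulated droplets, were checked. Clustering, naming, thinning and the pair shares were not. The scripts ran on scipy 1.17.1, numpy 2.4.6, leidenalg 0.10.2 and scanpy 1.11.5 under Python 3.11.15. Alternatives were cell calling by total UMIs, resolution 0.5, cells of at least 1000 UMIs, a mitochondrial limit of 20%, separate clustering, listed genes allowed among variable genes, the 5% highest doublet scores left out, centring, equal weight of cells, subtraction of free RNA (from barcodes under 100 UMIs), 1 CPM added and members of at least 100 UMIs. Clusters with at least 10% of their cells from each library, and the odds change over the 3 pairs, were added after seeing the data. No test between the conditions was made. One gene that the naming rule selects is not reported here.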

Additional observations from a re-analysis of the deposited data

Results flagged for a closer look

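Tap2, a chain of the peptide transporter, had log2 ratios past 1.5-fold in opposite directions in different classes. In loop and distal tubule-like and in collecting duct-like cells it had under 50 UMIs, too few to be counted past 1.5-fold. On the log2 scale JPI-289 stood to control at 1.0 (0.00 to 2.18, 11 and 30 UMIs) in loop and distal tubule-like cells. It was at -1.04 (-2.02 to -0.11, 26 and 17 UMIs) in collecting duct-like and -0.83 (-1.33 to -0.34, 89 and 58 UMIs) in macrophage-like cells. In EC-like cells, with 182 and 163 UMIs, it was at 0.06 (-0.25 to 0.37). With 1 library per condition the difference between the classes was not tested.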

How the results depend on the processing

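With each cell weighted equally, the log2 odds change of the immunosubunits was -1.17 in PT-like cells and -0.39 in stroma-like cells. The median log2 ratio of the genes with enough UMIs took both signs over the alternatives in 5 classes: -0.09 to 0.28 in PT-like, -0.43 to 0.09 in EC-like, -0.37 to 0.14 in collecting duct-like, -0.23 to 0.50 in stroma-like and -0.24 to 0.12 in neutrophil-like cells. It was 0.04 to 0.45 in loop and distal tubule-like and 0.02 to 0.18 in macrophage-like cells. The odds change ranged from -1.14 to -0.85 in EC-like, -0.84 to -0.72 in macrophage-like, -1.32 to -0.85 in collecting duct-like and -0.77 to -0.24 in neutrophil-like cells over 13 alternatives. Centring cannot move the odds change, because the scaling to all UMIs cancels within a pair, so it says nothing about its stability. In loop and distal tubule-like cells it ranged from -0.15 to 0.10. Of the single genes, 26 values left their interval and 663 did not. The limit of at least 100 UMIs only selects genes, so it cannot move the ratio of a single gene. No PT-like cluster had enough cells of both libraries, so that alternative gave no value there. No paired analysis was possible because each group has 1 sample and no test was made. Depth limits Nlrc5 in every class, and Tap1 and Psmb9 outside EC-like and myeloid cells.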

Other observations

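Cells that the naming rule left unnamed (178 control and 414 JPI-289 cells) entered no comparison. In them Psmb8 had 64 UMIs (46.8 CPM, 36 to 59.7) in control and 10 UMIs (6.77 CPM, 3.25 to 12.4) in JPI-289, and Psmb9 had 15 and 0 UMIs. B2m was at 197 CPM (174 to 222) and 86.6 CPM (72.3 to 103). These cells come from 4 clusters of different leading genes whose shares differ between the libraries, and the part of that difference was not tested. The injured PT list led a cluster of 12 control and 254 JPI-289 cells and another of 68 and 51. The collecting duct list led one of 81 and 106 cells. The urothelium list led one of 17 and 3 cells, with medians of 35205 and 24692 UMIs. In barcodes under 100 UMIs, taken as free RNA, H2-D1 was at 168 CPM in control and 314 CPM in JPI-289 and B2m at 197 and 154 CPM.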
